A study of Solanum lycopersicum with 8 samples.

Results

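AOX1a, ODD, RBOH1 and CEVI-1 are 4 tomato genes of oxidation and reduction measured as transcripts in mature green fruit peel. They were found by gene symbol in the annotation of the array, among 803 genes it names, and are represented by 4 of its 10209 probe sets, 1 for each gene. The members were chosen by their intensities on these same arrays, because earlier results showed large differences between the double mutant and the wild type, or between the double mutant and the Aft mutant. Their values in those comparisons are therefore given as a description, with no test.

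Solanum lycopersicum plants of 4 genotypes were compared, with 2 biological replicates and 2 arrays each, 8 arrays in all. The double mutant was homozygous for both Aft and atv and its fruit was labelled as strongly pigmented with anthocyanin. The atv (atroviolacea) mutant was labelled as having no significant anthocyanin, the Aft (Anthocyanin fruit) mutant as having limited amounts in spots, and the wild type, cv. Ailsa Craig, as having no significant anthocyanin. Plants of all genotypes were untreated and grew over winter in a greenhouse heated to at least 12 °C. The labels name a cultivar for the wild type only and none for the mutants. Line background and allele therefore cannot be told apart in any comparison between genotypes, also those between mutants. The design lists both single mutants as homozygous, and no plant or fruit age in days is given. Fruit of later stages was not analysed here.

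AOX1a encodes the alternative oxidase of the plant mitochondrion, which passes electrons from ubiquinol straight to oxygen and so bypasses the cytochrome path and its proton pumping. RBOH1 belongs to the respiratory burst oxidases, plasma membrane NADPH oxidases that make superoxide at the cell surface. CEVI-1 encodes a peroxidase, an enzyme that uses hydrogen peroxide to oxidise other substrates. ODD is annotated as a dioxygenase, a family with many members in flavonoid, gibberellin and ethylene metabolism. No substrate is named for it in the sources used here.

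Levels are intensities after quantile normalization of the 8 arrays, and differences are on the log2 scale with values under 1 set to 1. Testing was limited to the 9493 probe sets with a log2 level of at least 4 on at least 2 arrays. All 4 members passed, CEVI-1 through the 2 double mutant arrays alone. The number of arrays limits the precision. Median deposited intensities ranged from 514.5 to 755.4 between arrays, and replicates correlated with r of 0.978 to 0.988. The atv mutant arrays stood apart, with a mean correlation with the wild type arrays of 0.898 and 0.91, against 0.941 to 0.965 for the arrays of the double mutant and the Aft mutant. DFR, the dihydroflavonol reductase of anthocyanin synthesis, read 10063 and 10701 in the double mutant, 179 and 243 in the atv mutant, 1523 and 1748 in Aft mutant peel, and 1.64 and 10.1 in the wild type. The chalcone synthase gene CHS1 of the same pathway read 8538 and 9019, 10456 and 10920, 1579 and 1650, and 192 and 219 in that order of genotypes. DFR thus followed the order of labelled pigmentation apart from a level above the wild type in the atv mutant, while CHS1 was no lower in the atv mutant, labelled as without significant anthocyanin, than in the double mutant. Averaged over actin and GAPDH, the 3' minus 5' log2 difference of the control probe sets was 0.64 in both double mutant arrays, 0.91 and 0.66 in the atv mutant, 0.97 and 0.58 in Aft mutant peel, and 0.97 and 0.78 in the wild type.

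AOX1a had intensities of 52.4 and 74.2 in the double mutant, 1073 and 1225 in the atv mutant, 506 and 437 in Aft mutant peel, and 427 and 417 in the wild type. The double mutant arrays were the lowest and the atv mutant arrays the highest, and no 2 genotypes overlapped after normalization. On the values as deposited the Aft mutant (399.5 and 520.4) and the wild type (445.1 and 410.2) overlapped. In bulk peel, fewer cells of a type and less transcript per cell cannot be told apart. The genotype means on the log2 scale were 5.96 ± 0.35, 10.16 ± 0.13, 8.88 ± 0.15 and 8.72 ± 0.02 in the double mutant, the atv mutant, the Aft mutant and the wild type (SD, n = 2 each). The order from low to high was thus double mutant, wild type, Aft mutant and atv mutant. The step from the wild type up to the Aft mutant was 0.16, about the size of the SD of 0.15 within the Aft mutant, and the other steps, of 2.76 and 1.29, were larger than the SDs beside them.

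The AOX1a level in the double mutant was 6.76-fold lower than in the wild type, a log2 difference of -2.76 (SE 0.19). Against the atv mutant it was 18.4-fold lower (-4.20), and against the Aft mutant 7.54-fold lower (-2.92). With atv alone the direction was the opposite. AOX1a rose 2.72-fold in the atv mutant against the wild type (log2 difference 1.44, SE 0.19, limma adjusted p = 0.0025), both atv mutant arrays lying above both wild type arrays. This comparison was not among those that picked the members, but it shares the wild type arrays with one of them. The sum of the differences of the 2 single mutants from the wild type would put the double mutant above the wild type. The measured difference of the double mutant differed from that sum by -4.36 on the log2 scale (SE 0.27), which is given without a test.

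**Figure D1:**
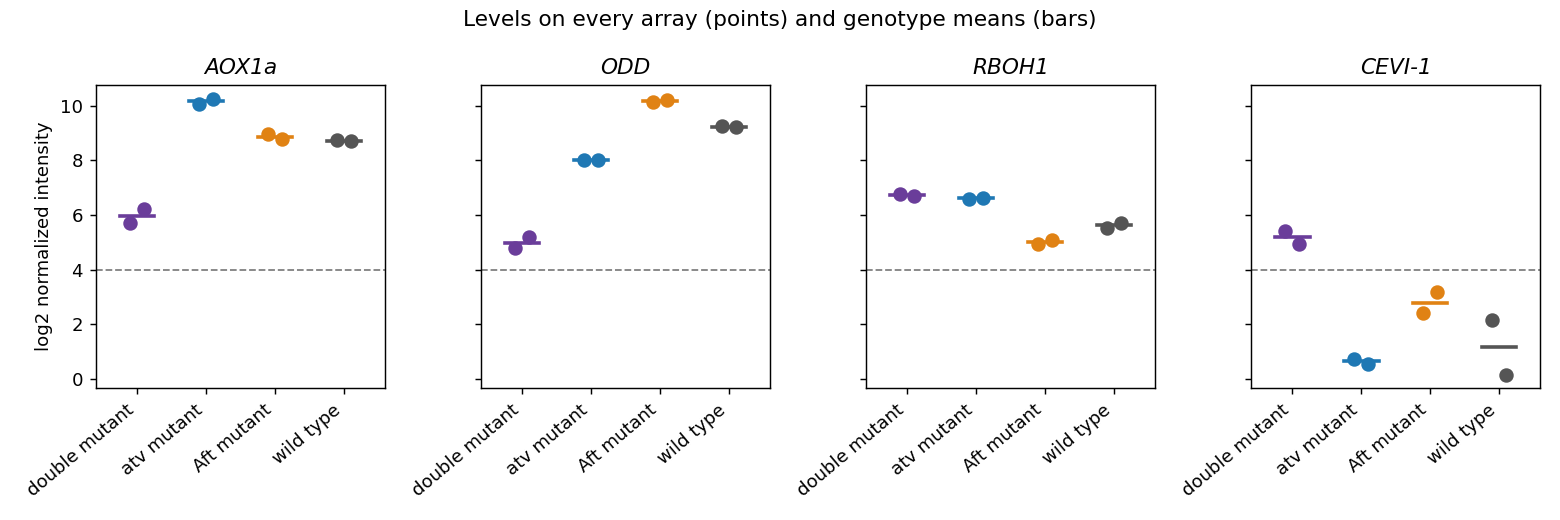
Log2 normalized intensity of each gene on every array (points, 2 per genotype) with the genotype mean (horizontal bars), for the double mutant, the atv mutant, the Aft mutant and the wild type. The dashed line marks a log2 level of 4. AOX1a and ODD are lowest in the double mutant, RBOH1 is highest in the double mutant and the atv mutant, and CEVI-1 is above the line only in the double mutant.

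ODD had intensities of 27.5 and 36.6 in the double mutant, 257 and 258 in the atv mutant, 1120 and 1203 in Aft mutant peel, and 609 and 597 in the wild type. All genotypes were separate, and the double mutant was again the lowest. The log2 means were 4.99 ± 0.29 in the double mutant, 8.01 ± 0.00 in the atv mutant, 10.18 ± 0.07 in the Aft mutant and 9.24 ± 0.02 in the wild type (SD, n = 2 each). After normalization every step in the order double mutant, atv mutant, wild type and Aft mutant was larger than the SDs beside it, with gaps of 3.02, 1.23 and 0.94. The small SDs depend on that step. As deposited, the atv mutant read 318.0 and 263.6 and the Aft mutant 951.3 and 1410.4, a wider spread. The genotypes stayed separate on those values, and the SE of a difference was 0.28.

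ODD fell in the atv mutant against the wild type, by 2.34-fold (log2 difference -1.23, SE 0.15, limma adjusted p = 0.0020). The double mutant stood 19.0-fold below the wild type (-4.25), 8.11-fold below the atv mutant (-3.02) and 36.6-fold below the Aft mutant (-5.19), each with an SE of 0.15. The last is the widest gap between any 2 genotypes among the 4 genes. In the Aft mutant alone ODD was 1.92-fold above the wild type (0.94). The double mutant differed from the sum of the 2 single mutants' differences by -3.96 (SE 0.21). AOX1a and ODD were thus both lowest in the double mutant, and they differed in the atv mutant, where AOX1a was above the wild type and ODD below it.

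RBOH1 had intensities of 108 and 103 in the double mutant, 95.5 and 99.1 in the atv mutant, 30.2 and 33.5 in Aft mutant peel, and 46.2 and 52.1 in the wild type. It was a dim probe set throughout, with the 2 genotypes that carry atv above the 2 that do not. Log2 means were 6.72 ± 0.05, 6.60 ± 0.04, 4.99 ± 0.11 and 5.62 ± 0.12 in the double mutant, the atv mutant, the Aft mutant and the wild type (SD, n = 2 each). The double mutant and the atv mutant differed by 0.12 (SE 0.11), and on the values as deposited, without quantile normalization, that difference was -0.32, so their order was not settled. The Aft mutant was 0.62 below the wild type, a gap larger than the SD of 0.12 after normalization. As deposited, the Aft mutant read 22.3 and 36.0 against 48.7 and 48.8 in the wild type. The SE of a difference was 0.27 on those values.

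RBOH1 rose 1.98-fold in the atv mutant against the wild type (log2 difference 0.99, SE 0.11, limma adjusted p = 0.0014). The double mutant was 2.15-fold above the wild type (1.11) and 3.32-fold above the Aft mutant (1.73). RBOH1 was the one member of the 4 in which the atv mutant and the double mutant lay on the same side of the wild type and at nearly the same level. The double mutant was 0.74 log2 units (SE 0.15) above the sum of the 2 single mutants' differences, which is given without a test. This excess was smaller on the values as deposited. There the differences from the wild type were 0.91 in the double mutant, 1.23 in the atv mutant and -0.78 in the Aft mutant.

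Of the markers chosen for the epidermis and cuticle, 2 of 7 had a probe set, the lipid transfer protein genes TSW12 and LE16. Their summed intensity was 9040 and 9891 in the double mutant and 15454 and 15930 in the atv mutant. It was 4325 to 4945 in the Aft mutant and 4191 to 4364 in the wild type. Like RBOH1, this sum was higher in the 2 genotypes with atv, while AOX1a was lowest in the double mutant. Most of it came from LE16, at 14002 and 14204 in the atv mutant, where TSW12 read 1452 and 1726. Against the wild type, TSW12 was at -0.56 and LE16 at 0.17 in the Aft mutant, neither called. The part of the sum in the RBOH1 and AOX1a values was not tested. Of 4 vascular markers 2 had a probe set, of 5 seed markers 2, and of 4 trichome markers 1. The summed vascular intensity was 1387 to 1431 in the double mutant, 824 to 870 in the atv mutant, 1297 to 1344 in the Aft mutant and 1280 to 1371 in the wild type. Nearly all of it came from SUT2, as the other gene, ext1, read 17.5 at most and failed the filter. The seed sum was 13.6 or above in the double mutant and at most 18.9 in the wild type, and the trichome marker reached 16.2 at most.

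CEVI-1 had intensities of 42.6 and 30.8 in the double mutant, 1.64 and 1.46 in the atv mutant, 5.24 and 9.05 in Aft mutant peel, and 4.44 and 1.11 in the wild type. It was above an intensity of 16, the level used here as near background, on the double mutant arrays and on no other. The log2 means were 5.18 ± 0.33, 0.63 ± 0.12, 2.78 ± 0.56 and 1.15 ± 1.41 in the double mutant, the atv mutant, the Aft mutant and the wild type (SD, n = 2 each). With intensities floored at 16, the double mutant was at least 2.26-fold above each of the other 3 genotypes. Below that floor the order of the atv mutant, the Aft mutant and the wild type carries no weight. The atv mutant and the wild type overlapped, and their difference of -0.52 (SE 0.65) was not called (limma adjusted p = 0.56), with both below the floor.

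**Figure D2:**
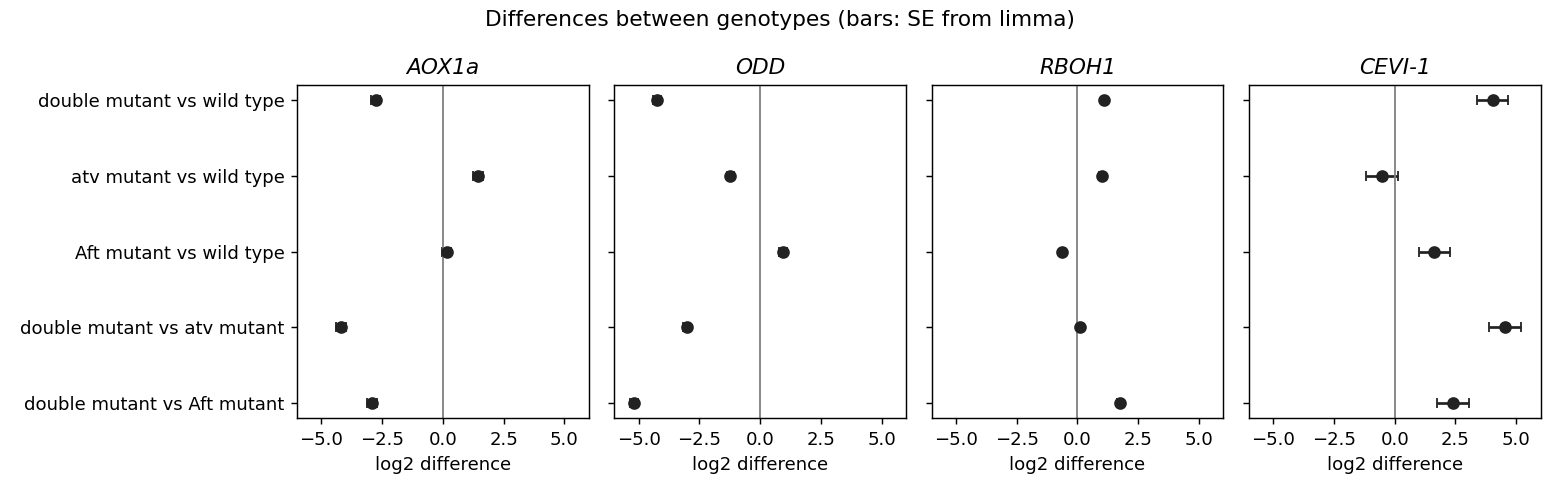
Log2 difference for 5 pairs of genotypes, the first named minus the second (points), with the SE from limma (bars), in a panel for each gene. AOX1a lies at -2.76 for the double mutant and 1.44 for the atv mutant against the wild type, ODD at -4.25 and -1.23, RBOH1 at 1.11 and 0.99, and CEVI-1 at 4.03 and -0.52. The CEVI-1 values are measured against levels near background.

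The comparison of the atv mutant with the wild type was not itself used to pick the members. Its wild type arrays were, so the adjusted p are not free of that choice. In it AOX1a and RBOH1 were called higher and ODD lower. These are the 3 members measured above an intensity of 16 in both genotypes. CEVI-1 was under it on all 4 arrays, so no difference could be read there. Of all probe sets tested in this comparison 40.3% were called, 18.8% higher and 21.5% lower, so a call of this kind was common. The 3 calls were kept under each of 15 alternative settings, with adjusted p of 0.00051 to 0.021 for AOX1a, 0.00069 to 0.035 for ODD and 0.0009 to 0.022 for RBOH1. The comparisons share arrays, so the values in different comparisons do not bear on each other as separate evidence.

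The other enzymes that make or remove reactive oxygen, and the relatives of the 4 genes, were followed in a list of 31 genes, of which 30 were tested. The list covers a plastid terminal oxidase, another NADPH oxidase, peroxidases, superoxide dismutases, catalases, enzymes of ascorbate and glutathione, a thioredoxin, a polyphenol oxidase and dioxygenases of gibberellin synthesis and ripening. Each gene counts once, by its probe set with the highest mean, and calls are at a limma adjusted p under 0.05.

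In the double mutant against the wild type no gene of this list rose, 2 fell and 28 were not called. Of all probe sets 13.1% were called, 7.39% higher and 5.73% lower. The 2 were the gibberellin 20-oxidase 20ox-3 and the ripening gene E8, both of dioxygenase families. For 20ox-3 the intensities were 22.1 and 23.0 in the double mutant against 96.7 and 86.0 in the wild type (log2 difference -2.02, SE 0.13, limma adjusted p = 0.0008). For E8 they were 34.0 and 53.2 in the double mutant against 89.9 and 80.7 in the wild type (-1.0, SE 0.23, adjusted p = 0.043). The E8 call ended in 10 of 16 alternative settings, among them the values as deposited and the fit without either wild type array (highest adjusted p 0.21), while that of 20ox-3 was kept in all 16. The median difference of the list was 0.00, beside 0.04 for all probe sets tested. No superoxide dismutase, catalase, ascorbate peroxidase or glutathione peroxidase of the list was called here.

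Between the Aft mutant and wild type peel 1 list gene of 30 was called, where 5.58% of all probe sets were, 2.78% higher and 2.8% lower. DHAR1, a dehydroascorbate reductase that regenerates ascorbate, fell 1.56-fold, to 3497 and 3082 in the Aft mutant against 5160 and 5051 in the wild type (log2 difference -0.64, limma adjusted p = 0.029). The call was kept in 6 of 16 alternative settings, and the second probe set of DHAR1 was at -0.59 (adjusted p = 0.11). The iron superoxide dismutase gene FESOD was counted by its brighter probe set, at 0.13 (limma adjusted p = 0.62). Its dimmer probe set was called lower, at -0.83 (adjusted p = 0.014). The median difference of the list was -0.01, beside 0.00 for all probe sets.

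In the atv mutant against the wild type 6 list genes rose, 8 fell and 16 did not pass, or 46.7% called beside the 40.3% of all probe sets. The catalase gene CAT2 rose 3.69-fold, to 11083 and 10893 in the atv mutant against 3077 and 2880 in the wild type (log2 difference 1.88, SE 0.09, limma adjusted p = 7.9e-05). The other catalase gene, cat1, was at -0.27 and did not pass (adjusted p = 0.068). CITRX, a thioredoxin, rose 2.13-fold (adjusted p = 0.00081) and DHAR2, a dehydroascorbate reductase, rose 1.71-fold (adjusted p = 0.0027). The DHAR2 call was lost on the values as deposited (adjusted p = 0.084). DHAR1 counted as a rise (0.47, adjusted p = 0.02), with its second probe set at 0.15 and not called (adjusted p = 0.46). The ascorbate synthesis gene GMP counted as a fall (-0.72, adjusted p = 0.046). Its second probe set was at -0.38 and not called (adjusted p = 0.058).

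Among the 8 falls was Wfi1, the second NADPH oxidase gene of the array annotation, which is known as induced by whitefly feeding. It read 1140 and 1155 in the atv mutant against 4341 and 4148 in the wild type, a fall of 3.7-fold (log2 difference -1.89, SE 0.11, limma adjusted p = 0.00015). The 2 NADPH oxidase genes therefore moved in opposite directions in the atv mutant, RBOH1 up and Wfi1 down. In the double mutant Wfi1 read 3327 and 3321, at -0.35 from the wild type and not called (adjusted p = 0.086), whereas RBOH1 stood above the wild type there. The gibberellin 20-oxidase 20ox-3 fell 4.92-fold in the atv mutant, with 19.1 and 18.0 against 96.7 and 86.0 in the wild type (adjusted p = 0.00013). The glutathione S-transferase gene ctu1 had 17.2 and 4.12 in the atv mutant against 91.5 and 43.6 in the wild type. It was called lower (adjusted p = 0.026), by at least 3.81-fold with intensities floored at 16, and its call was lost in 5 of 15 settings, among them the values as deposited and the fits without either wild type array or without atv mutant 2.

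The plastid terminal oxidase PTOX, a relative of the alternative oxidase that works in carotenoid synthesis and the thylakoid, did not go with AOX1a. It read 1407 and 1779 in the atv mutant against 2138 and 2340 in the wild type. PTOX was called lower there (log2 difference -0.50, SE 0.14, limma adjusted p = 0.036), a call not followed through the alternative settings. The double mutant was at -0.06 from the wild type for PTOX, against -2.76 for AOX1a. The iron superoxide dismutase gene FESOD was measured by 2 probe sets that disagreed. In the atv mutant against the wild type the one brighter on average over all arrays was called lower (-0.71, adjusted p = 0.0029). The other was called higher (2.15, adjusted p = 0.00012), so the gene has no settled direction. On the atv mutant arrays themselves the other was the brighter, at 6065 and 6492 against 4086 and 4481.

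**Figure D3:**
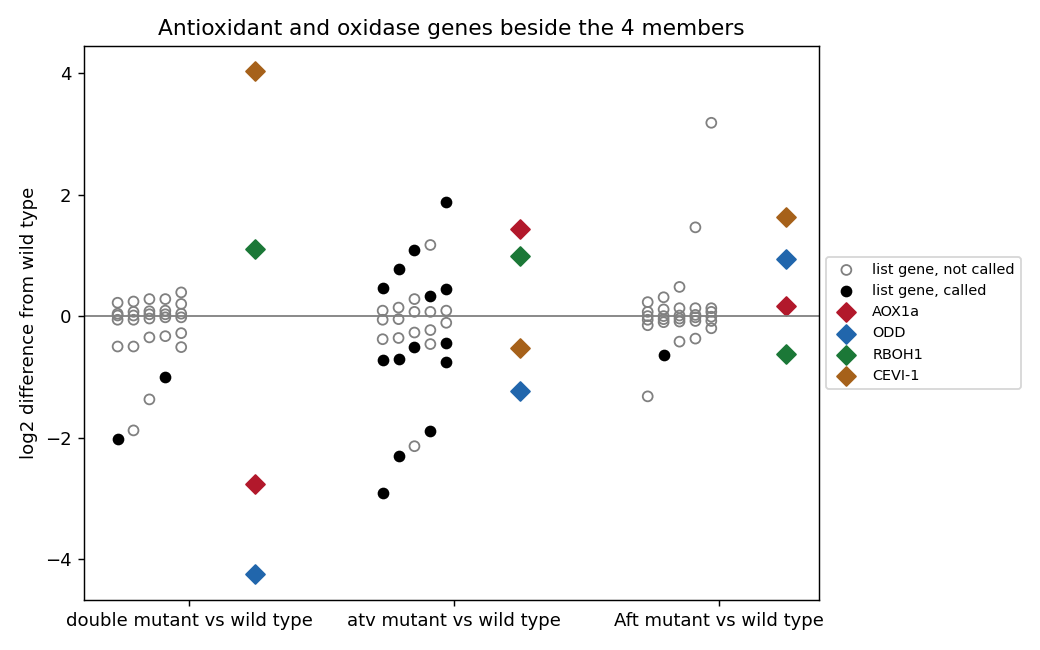
Log2 difference from the wild type for the 30 tested genes of the antioxidant and oxidase list (circles, filled where called at a limma adjusted p under 0.05) and for AOX1a, ODD, RBOH1 and CEVI-1 (diamonds), in the double mutant, the atv mutant and the Aft mutant. In the double mutant 2 circles are filled, at -2.02 and -1.0. In the atv mutant 14 are filled, and in the Aft mutant 1. No test of the members is implied for the double mutant or the Aft mutant.

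Setting the double mutant against the Aft mutant, 1 list gene rose and 1 fell, where 4.1% of all probe sets were called, 2.52% higher and 1.58% lower. DHAR1 rose 1.56-fold (limma adjusted p = 0.039) and 20ox-3 fell 3.14-fold (adjusted p = 0.0041). The DHAR1 call was kept in 6 of 16 alternative settings, and the second probe set of DHAR1 was at 0.27 and not called (adjusted p = 0.32). The 20ox-3 call was kept in 15 and lost on the values as deposited (adjusted p = 0.053). The dimmer probe set of FESOD, not used for the count, was called higher (0.90, adjusted p = 0.018), with the brighter at -0.15 (adjusted p = 0.36). With the double mutant against the atv mutant, 5 rose, 7 fell and 18 did not pass, where 44% of all probe sets were called, 24.7% higher and 19.3% lower. CAT2 fell 3.62-fold, with 3026 and 3039 in the double mutant against 11083 and 10893 in the atv mutant (adjusted p = 7.5e-05), and DHAR2 fell 2.08-fold and CITRX 1.85-fold. Wfi1 rose 2.90-fold (adjusted p = 0.00028). ctu1 rose at least 2.68-fold with intensities floored at 16 (adjusted p = 0.045), a call lost in 10 of 15 settings. The probe set of FESOD that was brighter on average over all arrays rose 1.60-fold (adjusted p = 0.0030), and the other fell (-2.08, adjusted p = 0.00012). The call of the brighter was lost on the values as deposited (adjusted p = 0.06). DHAR1 counted as a fall (-0.46, adjusted p = 0.019), with its second probe set at -0.47 and not called (adjusted p = 0.054). GMP counted as not called (0.22, adjusted p = 0.46), though its second probe set was called higher (0.71, adjusted p = 0.0067). CAT2 in the double mutant was close to the wild type (3026 and 3039, against 3077 and 2880), while AOX1a in the double mutant was below both the atv mutant and the wild type.

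For each member, the 3 genes of most similar pattern were taken by Pearson's r over the 8 arrays among 391 named probe sets whose levels spanned at least 1 log2 unit. The 8 arrays form 4 pairs of replicates, so r describes mostly the order of 4 genotypes, and no p is given. ODD was followed most closely by the chitinase gene CHI3 (r = 0.991), which had 565 and 648 in the double mutant, 1701 and 2016 in the atv mutant, 3261 and 3088 in Aft mutant peel, and 2314 and 2256 in the wild type. Next came the beta-galactosidase gene TBG1 (r = 0.97) and E8 (r = 0.872). CHI3 and TBG1 had the same order of genotypes as ODD, over a narrower range.

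AOX1a was closest to sumo, which encodes a small ubiquitin-like modifier (r = 0.938), to the expansin gene EXP2 (r = 0.903) and to ER21 (r = 0.892). The level of sumo was 1114 and 1305 in the double mutant, 2523 and 2432 in the atv mutant, 1757 and 1502 in Aft mutant peel, and 1721 and 1811 in the wild type, a narrower range than that of AOX1a. RBOH1 was closest to the vacuolar processing enzyme gene VPE5 (r = 0.922), to psi14B (r = 0.919) and to the zeaxanthin epoxidase gene ZEP (r = 0.895). Only the atv mutant arrays put psi14B above an intensity of 16, at 19.4 and 25.1. CEVI-1 was closest to XTH6, a xyloglucan endotransglucosylase (r = 0.95), which had 221 and 229 in the double mutant, 64.7 and 75.6 in the atv mutant, 137 and 141 in Aft mutant peel, and 82.7 and 78 in the wild type. The polygalacturonase gene PGcat (r = 0.91) and the ethylene response factor ERF2 (r = 0.897) followed. These rest in part on CEVI-1 values near background.

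**Figure D4:**
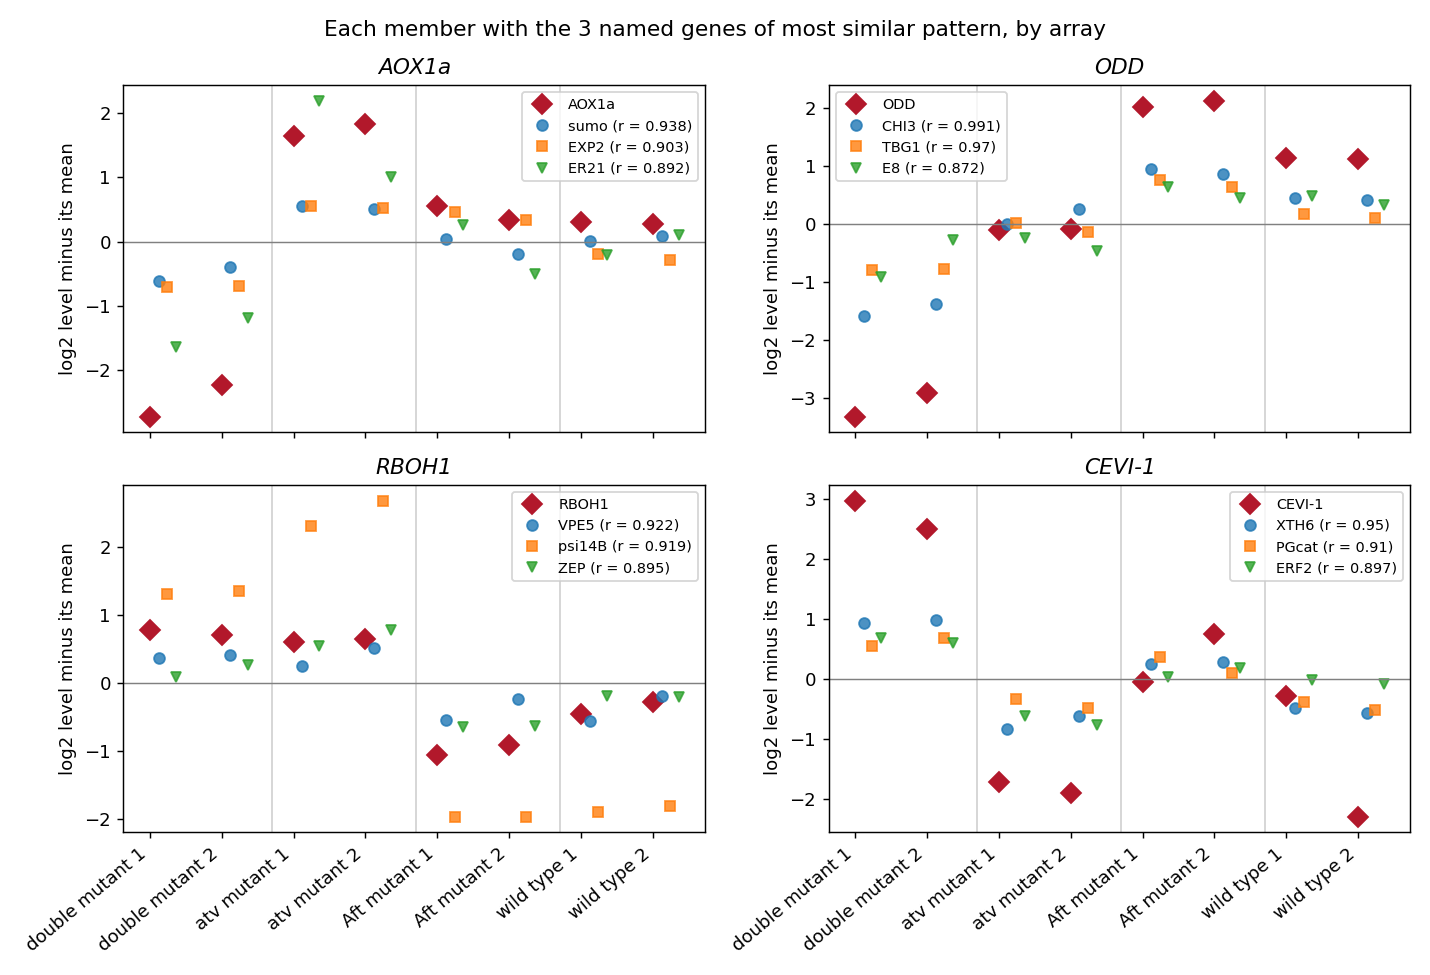
Log2 level minus its mean over the 8 arrays, by array from the double mutant to the wild type, for each gene (diamonds) and its 3 nearest named genes (circles, squares and triangles), with Pearson's r in the legend. CHI3 and TBG1 follow the order of ODD over a smaller span, and the neighbours of CEVI-1 are highest in the double mutant.

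Among themselves the 4 genes showed no common pattern over the 8 arrays. The r was 0.73 for AOX1a with ODD and 0.18 for RBOH1 with CEVI-1, and it was -0.86 for ODD with RBOH1, -0.89 for AOX1a with CEVI-1, -0.63 for ODD with CEVI-1 and -0.30 for AOX1a with RBOH1. The values with CEVI-1 rest on 6 of 8 arrays below an intensity of 16, and all of them include the double mutant levels by which the genes were chosen. AOX1a and ODD were lowest in the double mutant, where CEVI-1 was highest and RBOH1 was at about the level of the atv mutant.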

How the data were processed

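RNA of fruit peel was labelled with biotin and hybridised to Affymetrix Tomato Genome Arrays, 1 array per sample, per the labels' protocols. The authors deposited 1 linear intensity per probe set and array. GCRMA is named in the submitters' processing notes, without a version, and the basis of the scale is not stated in the sources used here. Because array medians differed, the intensities were quantile-normalized, floored at 1 and log2-transformed. After 171 control probe sets were left out, 545 of low level failed the filter and 9493 were tested. Group means of all 8 arrays were fitted with limma 3.58.1 in R 4.3.3 (residual degrees of freedom 4, prior 1.77), with 1 spread estimated over the 4 genotypes. Tests were two-sided, with Benjamini-Hochberg adjustment over all probe sets tested and a threshold of 0.05. The fit was tested on simulated data. The labels call the replicates biological.

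Gene symbols come from the platform annotation, which names 909 probe sets, of which 885 were matched to a current gene table. No gene descriptions were in these tables, so the list genes were matched by symbol or synonym. The members and lists were chosen with earlier results of these data known. Named genes are the members, the 3 largest called rises and falls of the list in each comparison, the 3 nearest genes of each member, and DFR and CHS1 as a check. cat1, PTOX, GMP and the second probe sets were named after their values were seen. Alternatives were the values as deposited, scaling to a common median, a floor of 16, no filter, only the arrays compared, no atv mutant arrays, a replicate block, an intensity trend in the prior and each array left out. Same-numbered replicates deviated together with r of -0.035 to 0.181 between genotypes, so the numbers were not taken as pairs.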

Additional observations from a re-analysis of the deposited data

Results flagged for a closer look

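Effects of an allele on AOX1a, ODD, RBOH1, CITRX and 20ox-3 went in opposite directions in the 2 backgrounds, with no overlap between the normalized arrays in either. Whether the effects differ between the backgrounds was not tested, and with 2 arrays per genotype 2 groups are often separate. Only the members and the named list genes were searched. The share of all tested probe sets with this pattern was not counted, so nothing particular to these genes can be read from it. With atv added, AOX1a differed by -2.92 between the double mutant and the Aft mutant, and by 1.44 between the atv mutant and wild type peel. With Aft added, AOX1a differed by -4.20 between the double mutant and the atv mutant, and by 0.16, less than its SE of 0.19, between the Aft mutant and wild type peel, where the arrays overlap on the values as deposited. For ODD the effect of Aft was -3.02 between the double mutant and the atv mutant, and 0.94 between the Aft mutant and wild type peel. For RBOH1 it was 0.12 between the double mutant and the atv mutant, a sign that turned on the values as deposited (-0.32), and -0.62 between the Aft mutant and wild type peel. CITRX showed -0.89 between the double mutant and the atv mutant. Between the Aft mutant and wild type peel it was at 0.23, which was not called (limma adjusted p = 0.34). For 20ox-3 the effect of Aft was 0.28 between the double mutant and the atv mutant, both close to an intensity of 16. It was -0.37 between the Aft mutant and wild type peel. Neither 20ox-3 effect was called (limma adjusted p = 0.12 and 0.21), so no reversal is established for it.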

How the results depend on the processing

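The calls of AOX1a, ODD and RBOH1 in the atv mutant against the wild type were kept under all 15 alternatives, with log2 differences of 1.35 to 1.54, -1.24 to -1.10 and 0.90 to 1.23. CEVI-1 was called under none (adjusted p 0.05 to 1.0) and its sign turned without wild type 1 (0.48); its levels outside the double mutant lie near background. RBOH1 kept its sign in 13 of 15 between the double mutant and the atv mutant, and AOX1a and ODD kept theirs in every comparison and setting. The replicate block moved none of the counts of all probe sets by over 1.5 times, with 3765 in the atv mutant against the wild type. List counts under it were 0 for the Aft mutant against wild type and 1 in the double mutant against the Aft mutant. Without scaling between arrays the median of all probe sets moved by -0.17 in the double mutant against the wild type, -0.11 against the Aft mutant and -0.23 against the atv mutant.

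In the order double mutant against wild type, Aft mutant and atv mutant, then atv mutant and Aft mutant against wild type, 1246, 389, 4178, 3829 and 530 probe sets were called, and 442, 76, 2252, 1987 and 290 as deposited. In the atv mutant 1787 were higher and 2042 lower, against 1210 and 777 as deposited, and in the double mutant against the atv mutant 2347 and 1831, against 698 and 1554. In the double mutant against the wild type 702 were higher and 544 lower, against 175 and 267. Leaving out 1 array gave 348 to 2141, 73 to 821, 2552 to 4223, 2115 to 3835 and 205 to 550, with a lone array assumed to vary like the other genotypes. The double mutant had 361 and 348 calls against the wild type without wild type 1 and 2, 575 and 421 without double mutant 1 and 2, and 2141 without either atv mutant array. Against the Aft mutant it had 153 and 73 without double mutant 1 and 2, 134 without either wild type array, and 83 and 246 without Aft mutant 1 and 2. Against the atv mutant it had 2552 without double mutant 2. The atv mutant had 2115 and 2226 without wild type 1 and 2, and the Aft mutant 206 and 205, or 314 and 326 without Aft mutant 1 and 2. Against the wild type the double mutant had 2187 calls with only the 4 arrays compared, 2141 without the atv mutant arrays and 1984 with a trend in the prior. Against the Aft mutant it had 134, 821 and 698, and 584 with a floor of 16.

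The list counts, 2, 2, 12, 14 and 1 in the same order, were 1, 0, 5, 5 and 0 as deposited. With arrays scaled to a common median they were 1 in the double mutant against the wild type, 1 against the Aft mutant and 0 in the Aft mutant. With only the 4 arrays compared they were 6 in the double mutant against the atv mutant, 7 in the atv mutant and 0 in the Aft mutant. A floor of 16 gave 5 in the double mutant against the Aft mutant and 2 in the Aft mutant, a trend in the prior 2 in the Aft mutant, and no filter 1 in the double mutant against the wild type. Leaving out 1 array gave 1 to 2, 1 to 2, 6 to 10, 6 to 11 and 0 to 1. The atv mutant count was 7 and 6 without wild type 1 and 2 and 9 without atv mutant 2, and the double mutant against the atv mutant had 6 without either double mutant array. The cause of these shifts was not tested.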
